A study of Mus musculus with 8 samples.

Results

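Lysosome and autophagy genes were examined in whole brain of mice lacking Cav1, which encodes caveolin 1, a scaffold protein of the membrane pits called caveolae. The 36 genes were taken by name from a table of 34299 genes. They comprised 4 lysosomal membrane proteins, 8 cathepsins and related proteases, 8 glycan and lipid hydrolases with their activator, 5 genes linked to ceroid lipofuscinosis or progranulin, 3 genes of lysosomal calcium release and transcriptional control, and 8 autophagy factors. Each of the 36 names matched 1 row, and all 36 passed the filter on low counts in both comparisons.

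Bulk RNA-seq of polyadenylated RNA had been carried out on 3 wild-type (WT) and 3 Cav1 knockout (KO) brains from fetuses labelled day 15 and on 2 Cav1 KO brains at week 70. Strain, sex and the construction of the knockout are not given in the sources used here, and the samples included no WT brains at week 70. The genotypes were therefore compared at day 15, and the ages only within the knockout. Both comparisons use the same 3 KO day 15 libraries, so a low value in those libraries enters both.

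Lysosomes are acidic organelles that break down proteins, glycans and lipids delivered by endocytosis and autophagy. Their soluble enzymes are made as precursors, carried to the lysosome and activated there, while heavily glycosylated membrane proteins line its boundary. In autophagy, the ULK1 and Beclin 1 complexes start a membrane that conjugated ATG8 proteins extend around cargo, which then fuses with lysosomes. TFEB and its relative TFE3 are transcription factors that bind an E-box sequence, the CLEAR element, near many lysosomal genes. In brain, loss of several of these enzymes causes storage disease with neuron loss, and microglia carry particularly high levels of cathepsin S and progranulin.

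Promoter sequences are shown because the E-box is a feature that many of these genes share and that was not used to choose them by name. RefSeq promoters on GRCm38.p6, from 250 bases before to 50 after each start, were found for 33 of the 36 genes, 40 promoters in all; Ctsb, Becn1 and Atg16l1 had no entry. The E-box core CACGTG, which reads the same on both strands, occurred in 35% of these promoters and in 7.15% of the 32851 promoters of the table. The longer form GTCACGTG, searched on both strands and containing the core, occurred in 10 of the 40 promoters (25%) and in 2.25% of all. The full palindrome, the core with GT before it and AC after it, which contains both shorter forms, was found in Cln3 alone among these genes and in 0.326% of all promoters. For the 10 genes with the longer form, the 30 bases around 1 match are given 5′ to 3′ on the strand of the gene, with the matched bases in capitals.
Lamp1 (chr8:13159121-13159150): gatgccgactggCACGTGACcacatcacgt
Ctsa (chr2:164833749-164833778): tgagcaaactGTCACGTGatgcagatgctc
Ctsd (chr7:142387908-142387937): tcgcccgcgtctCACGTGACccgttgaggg
Lgmn (chr12:102439124-102439153): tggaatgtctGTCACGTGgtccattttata
Glb1 (chr9:114401018-114401047): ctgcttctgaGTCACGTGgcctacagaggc
Gla (chrX:134601182-134601211): tgagatctcgGTCACGTGagcaactctcgg
Naglu (chr11:101070009-101070038): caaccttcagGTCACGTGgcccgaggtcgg
Cln3 (chr7:126583340-126583369): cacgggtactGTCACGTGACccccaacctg
Mcoln1 (chr8:3500436-3500465): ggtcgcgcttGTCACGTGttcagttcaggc
Atg7 (chr6:114670952-114670981): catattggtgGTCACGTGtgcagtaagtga
Between these matches and the start lay 6 bases in Ctsa, the shortest distance, and 188 in Gla, the longest. Ctsd, Lgmn, Gla and Cln3 lie on the minus strand and the other 6 on the plus strand. The Lamp1 promoter held 4 copies of CACGTG. A match is a description of the letters in this window and not evidence of binding.

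The libraries held between 14110031 and 20833397 counts, and every WT library was deeper than every KO day 15 library, so that depth and any unrecorded batch cannot be told apart from genotype. The targeted gene followed its labels, with 218 to 367 counts of Cav1 in WT and at most 5 in any KO library. WT day 15 replicate 1 stood apart through connective tissue RNA: the 7 fibroblast markers summed to a normalised count (CPM, counts relative to library size) of 4461 there, to 317 and 531 CPM in the other WT libraries and to 71.6 to 144 CPM in KO day 15. The week 70 replicates differed in choroid plexus markers (67.6 and 2364 CPM in sum) and, by Xist and Y-linked counts, in sex, the first resembling the female and the second the male pattern; the 6 fetal libraries resembled the female pattern. Markers of neurons were present in every library. They summed to 5344 to 5915 CPM in WT, to 4473 to 4558 CPM in KO day 15, and to 8218 and 7838 CPM at week 70. Of the 7 neuron markers, 4 were called lower, 2 higher and 1 not in fetal KO, and with age 4 were higher and 3 lower. In bulk tissue, fewer cells of a type and less RNA per cell cannot be told apart.

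At day 15 most of these genes were lower in the knockout. The median log2 fold change by class was -0.25 for the membrane proteins, -0.69 for the proteases, -0.70 for the hydrolases, 0.093 for the ceroid lipofuscinosis and progranulin genes, -0.94 for the channel and transcription factors, and -0.18 for the autophagy factors. Psap, the precursor of the saposins that present sphingolipids to their hydrolases, was 3.05-fold lower, Gaa, the glycogen-degrading acid alpha-glucosidase, 3.41-fold lower, and Grn, the progranulin precursor, 3.15-fold lower. The opposite direction was seen for Tmem106b, a lysosomal membrane protein, for Ctss, the microglial cathepsin S, and for Atg5, part of the ATG8 conjugation machinery, each about 1.6-fold higher. By edgeR's quasi-likelihood test with Benjamini-Hochberg adjustment over all 19147 genes tested (threshold 0.05, used for every adjusted p here), 22 of the 36 were lower in KO and 7 higher, while 7 did not pass. Of all tested genes, 62.6% were called, 32.5% lower and 30.1% higher, so the members' share of lower calls (61.1%) was above this background and that of higher calls (19.4%) below it. The genes were chosen with earlier results of these data known. Here and below, shares set against all genes are therefore a description and not a test of the set. The median log2 fold change was -0.47 over the members and 0.029 over all genes. With upper-quartile scaling, 19 members were lower and 9 higher, where 25.7% of all genes were called lower and 39.8% higher. Of the called genes, 10 members fell by at least 1 on the log2 scale and 0 rose by as much, against 10.8% and 8.53% of all genes. A test against a fold change of 1.5 called 14 members lower and 0 higher, where 14.8% and 9.21% of all genes were called. Normalised CPM, scaled by the trimmed mean of M values (TMM) over the 8 libraries, did not overlap between the genotypes for 30 members (68.3% of all genes tested).

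**Figure D1:**
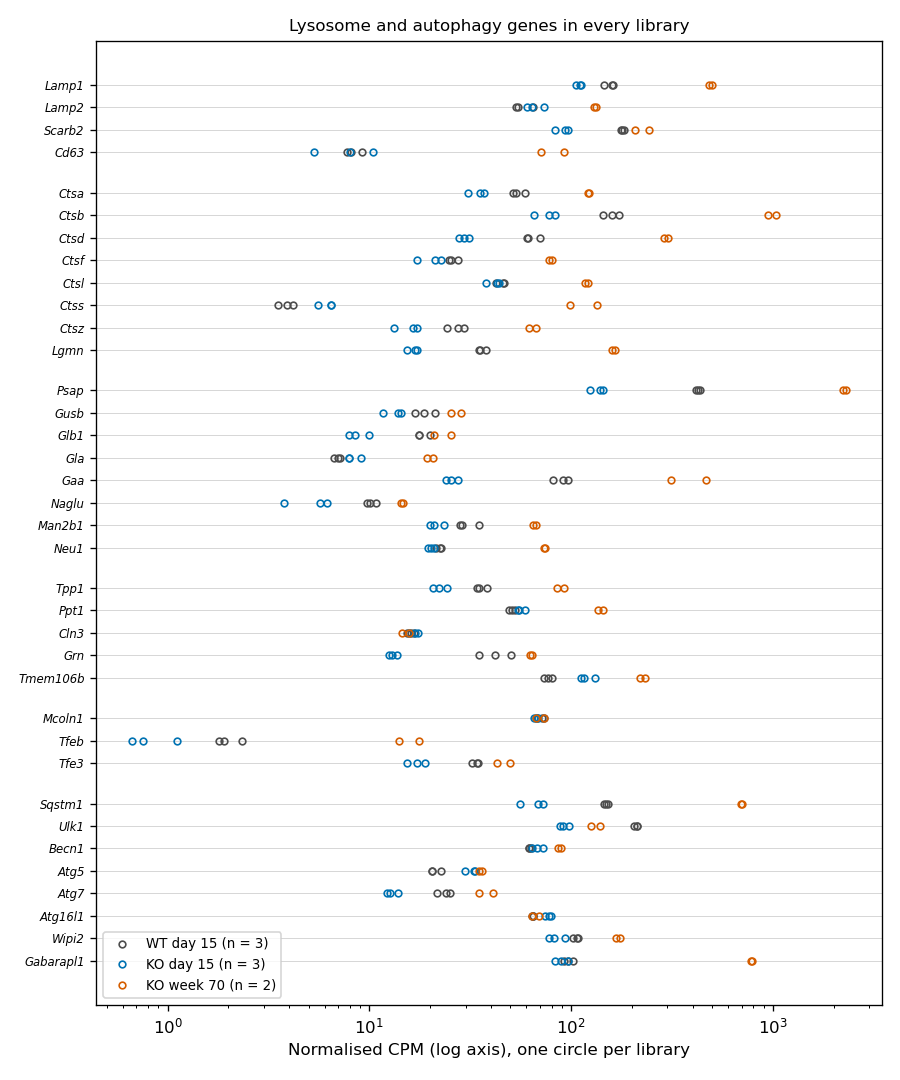
Normalised CPM on a log axis (x) of the 36 genes (y, grouped by class) in each of the 8 libraries, with 1 circle per library coloured by group. Psap has the highest mean in every group, and the 3 KO day 15 circles of Psap, Gaa and Grn lie to the left of the 3 WT circles.

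By age the direction was nearly uniform. In KO brain 32 of the 36 genes were higher at week 70 than at day 15, 1 was lower and 3 did not pass, among 20000 genes tested. Of all genes, 82.0% were called with age, 37.6% higher and 44.4% lower. The counts by class below are to be read beside these shares and those given for day 15. With upper-quartile scaling 30 members were higher and 3 lower, against 32.4% and 49.8% of all genes. The median log2 fold change was 1.49 over the members and -0.19 over all genes, and 26 members rose by at least 1 on the log2 scale, as did 26.2% of all genes; 0 members and 34.3% of all genes fell by as much. A test against a fold change of 1.5 called 30 members and 28.9% of all genes higher. The CPM of the 2 ages did not overlap for 34 members and for 87.9% of all genes. The largest changes were those of Ctss (17.8-fold), Tfeb (17.3-fold), Psap (15.6-fold), Gaa (14.2-fold) and Ctsb (12.2-fold). With a correction for transcript length and GC content, these were 31.5-fold for Ctss, 8.26-fold for Tfeb, 11.2-fold for Psap, 6.89-fold for Gaa and 10.01-fold for Ctsb, and Cd63 (15.3-fold) ranked after Ctss. For 32 members both week 70 libraries lay above all 6 fetal libraries, which held for 33.0% of the 18893 genes tested in both comparisons. The exceptions were Ulk1, Atg16l1, Cln3 and Mcoln1. Library preparation at the 2 ages cannot be told apart from age here.

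**Figure D2:**
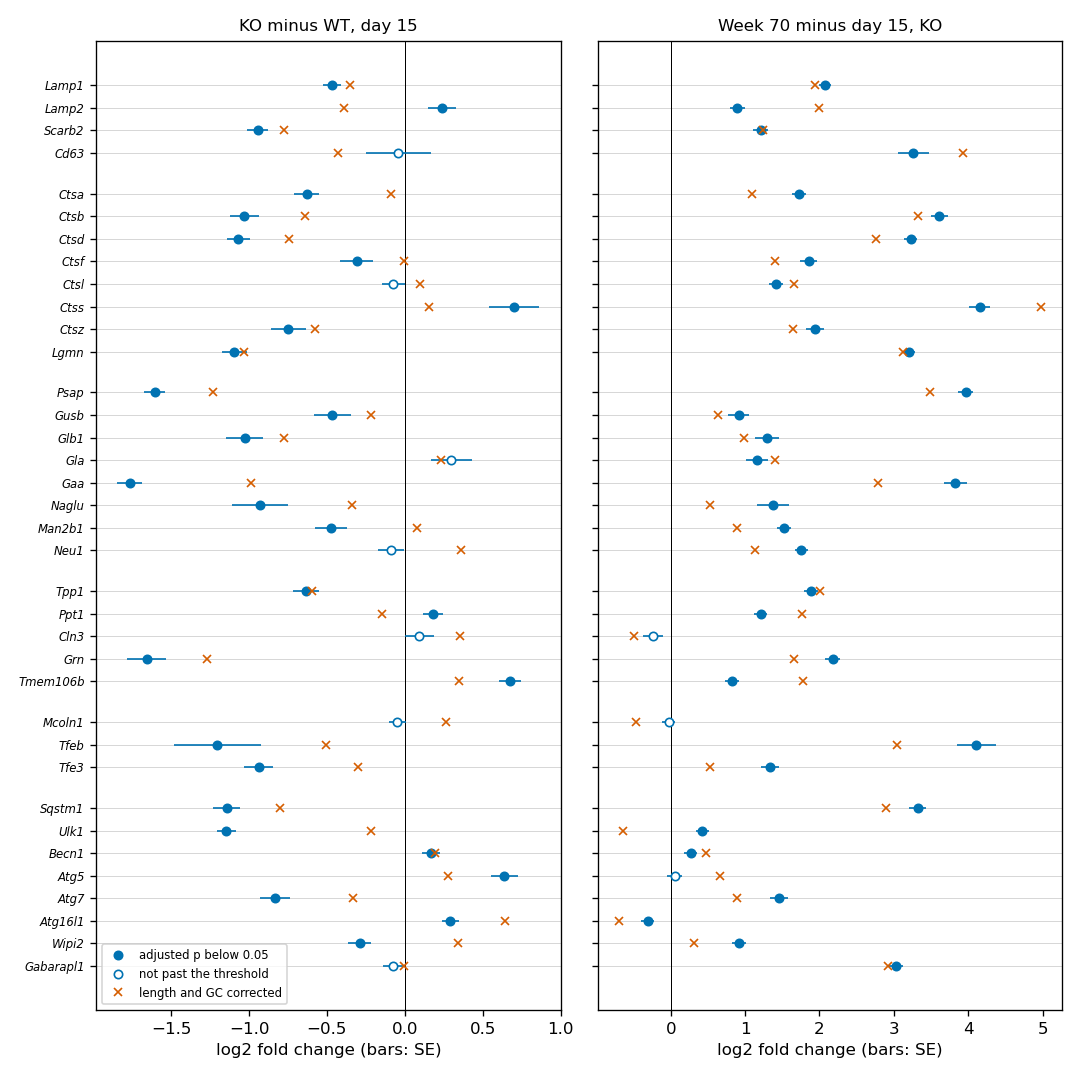
log2 fold change (x) of each gene (y) for KO minus WT at day 15 (left) and week 70 minus day 15 in KO (right). Circles are edgeR estimates with SE, filled where the adjusted p is below 0.05, and crosses are estimates after correction for transcript length and GC content; 22 filled circles lie below 0 on the left and 32 above 0 on the right.

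The fall in fetal KO brain went with GC content. The members' transcripts were richer in GC than those of tested genes (medians of 52.7% and 49.6%) and ranged from 38.5% in Tmem106b to 63.2% in Tfeb. Of the 25 members above the median GC of tested genes, 19 were lower in KO and 1 higher, against 47.5% and 15.5% of all 9525 such genes. Of the 11 members at or below it, 3 were lower and 6 higher, against 17.8% and 44.8% of all such genes. Spearman's rho between GC and the log2 fold change, a description across genes that share the same 6 libraries, was -0.66 over the 36 members and -0.48 over 18803 genes. A fit in which each library's smooth trend on transcript length and GC was removed left 17 members lower (24.5% of all genes) and 8 higher (25.8%), with a median of -0.26 against 0.028 for all genes. With this fit rho was -0.28 over the 36 members and 0.0032 over the 18803 genes. Whether a relation to GC remained among the members was not tested. By class the corrected medians were -0.41 for the membrane proteins, -0.33 for the proteases, -0.28 for the hydrolases, -0.14 for the ceroid lipofuscinosis and progranulin genes, -0.30 for the channel and transcription factors, and 0.094 for the autophagy factors, the sign having turned for the ceroid lipofuscinosis and autophagy classes. The lower call was made in both fits for 15 of the 22, was lost for Ctsa, Ctsf, Gusb, Naglu, Man2b1 and Tfeb, and turned to a higher call for Wipi2 (0.34). Among the 7 higher calls, 4 remained (Tmem106b, Becn1, Atg5 and Atg16l1), Ctss was lost, and Lamp2 (-0.39) and Ppt1 (-0.14) turned to lower calls. After correction the members with the largest falls on the log2 scale were Grn (-1.27), Psap (-1.23), Lgmn (-1.03) and Gaa (-0.99). With age the corrected fit called 32 members higher (39.7% of all genes) and 4 lower (39.0%).

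**Figure D3:**
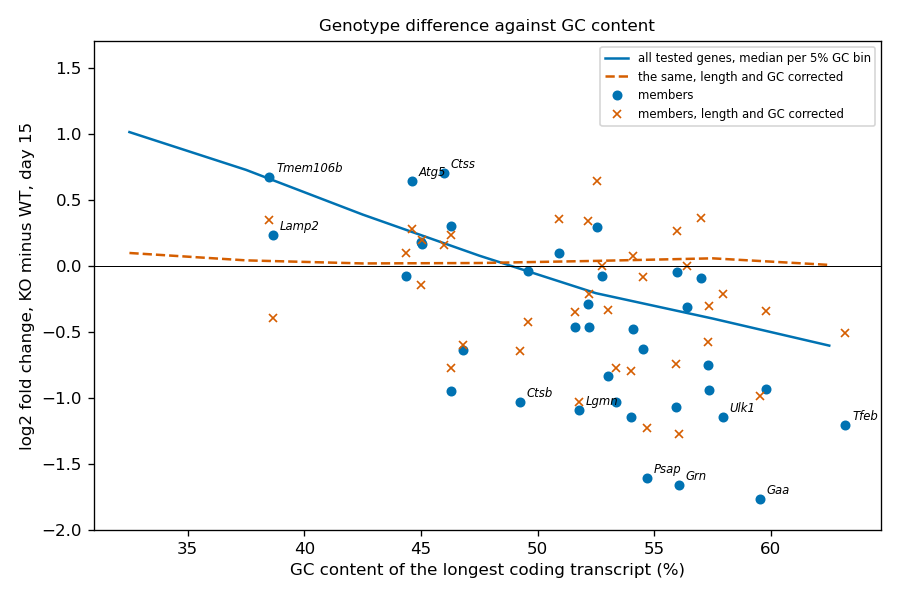
log2 fold change of KO minus WT at day 15 (y) against the GC content of the longest coding transcript (x). Dots are the 36 genes, the solid line is the median of all tested genes in bins of 5% GC, and crosses and the dashed line are the same after correction; the line runs from 1.01 at 30 to 35% GC to -0.60 at 60 to 65%, and Psap, Grn and Gaa lie below it.

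Of the 4 lysosomal membrane proteins, 2 were lower and 1 higher in fetal KO brain, and with the correction 3 were lower and 0 higher. Lamp1, an abundant glycoprotein of the lysosomal boundary, was at 161, 146 and 159 CPM in WT and at 112, 106 and 110.5 CPM in KO, without overlap. It fell by 0.47 on the log2 scale (SE 0.0574, adjusted p 4.37e-05). Scarb2, which carries glucocerebrosidase to the lysosome, was at 179.5, 183 and 177 CPM in WT and at 92.9, 96.6 and 83.1 CPM in KO. It fell by 0.95 (SE 0.0649, adjusted p 5.79e-07), the KO mean being 0.505 of the WT mean. Lamp2, an X-linked relative of Lamp1 needed for fusion with autophagosomes, overlapped between the genotypes at 64.8, 53.1 and 54.8 CPM in WT and 64.0, 60.8 and 73.1 CPM in KO. Its call of 0.24 (adjusted p 0.0398) was lost without WT replicate 2 or 3 and without KO replicate 1 or 3, with all 8 libraries in the fit and with no filter. The tetraspanin Cd63 was at 9.21, 7.78 and 8.14 CPM in WT and 10.4, 8.06 and 5.33 CPM in KO, and did not pass (adjusted p 0.874). With the correction Lamp2 was at -0.39 (adjusted p 0.00186) and Cd63 at -0.43 (adjusted p 0.115).

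At week 70 all 4 membrane protein genes were higher than in fetal KO brain, as were 37.6% of all genes tested. Lamp1 reached 484 and 501 CPM, a log2 fold change of 2.07 (SE 0.0821, adjusted p 3.41e-09). Lamp2 reached 129 and 134 CPM (0.89, and 2.00 after the length and GC correction), and Scarb2 207 and 244 CPM (1.21). Cd63 rose most, to 71.2 and 91.9 CPM (3.26, adjusted p 1.15e-07), but its reads may be shared with the processed pseudogene Cd63-ps. That pseudogene held 291 to 419 counts in WT, 165 to 267 in KO day 15 and 108 and 130 at week 70. Cd63 itself held 156 to 197, 92 to 172, and 1080 and 1334 counts, so the fetal level of Cd63 is uncertain and its rise depends on how those reads were assigned.

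Of the 8 proteases, 6 were lower in fetal KO brain. Ctsb, a cysteine cathepsin of most cell types, was at 159, 173 and 144 CPM in WT and at 83.4, 77.5 and 65.8 CPM in KO. It fell by 1.03 (SE 0.0928, adjusted p 4.14e-06). Ctsd, the main aspartic cathepsin, was at 70.1, 60.4 and 60.8 CPM in WT and 31.1, 29.6 and 27.9 CPM in KO, and fell by 1.07 (SE 0.0743, adjusted p 6.32e-07). Lgmn, the asparaginyl endopeptidase that processes other cathepsins, was at 35.003, 35.3 and 37.9 CPM in WT and 16.8, 17.2 and 15.4 CPM in KO. Its fall of 1.09 (SE 0.0828, adjusted p 1.16e-06) was 1.03 after the length and GC correction, whereas that of Ctsb was 0.64. None of these 3 genes overlapped between the genotypes, and neither did 68.3% of all genes tested. The KO means were 0.476, 0.463 and 0.456 of the WT means for Ctsb, Ctsd and Lgmn.

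The other proteases showed smaller differences or none that passed. Ctsz, a carboxypeptidase, fell by 0.75 (adjusted p 0.000214), with 24.3 to 29.5 CPM in WT and 13.3 to 17.2 CPM in KO. Ctsa, which also protects neuraminidase and beta-galactosidase in a complex, fell by 0.63 (adjusted p 5.39e-05), and by 0.087 with the correction (adjusted p 0.310). Ctsf fell by 0.31 (adjusted p 0.0246); this call was lost with the correction, with upper-quartile scaling and without WT replicate 3 or KO replicate 3, where the log2 value was -0.20 in the last case. Ctsl was at 42.4 to 46.5 CPM in WT and 37.8 to 43.9 CPM in KO and did not pass (adjusted p 0.399).

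Ctss was the only protease called higher in KO. It was at 4.21, 3.89 and 3.52 CPM in WT and at 6.42, 5.56 and 6.43 CPM in KO, with no overlap and a log2 fold change of 0.70 (SE 0.162, adjusted p 0.00329). After the correction the value was 0.15 and did not pass (adjusted p 0.449). The 10 microglia markers summed to 52.4 to 80.6 CPM in WT and to 40.8 to 46.2 CPM in KO, with 2 called higher, 3 called lower and 5 not called. Tmem119 held 324 counts in WT replicate 1 against 35 and 53 in the other WT libraries and 19 to 24 in KO. Relative to the summed markers, Ctss stood at 5.22 to 7.42% in WT and at 12.03 to 15.7% in KO. This percentage rests on a CPM sum of markers called in both directions. Summed per kilobase of transcript, the markers overlapped between the genotypes, at 29.1 to 41.7 in WT and 31.9 to 36.4 in KO. The part of microglial number in the Ctss difference was not tested.

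All 8 proteases were higher at week 70, as were 37.6% of all genes tested. Ctss reached 135 and 99.2 CPM (4.15, SE 0.146, adjusted p 1.48e-09), and the microglia markers reached 643 and 498 CPM in sum, so that Ctss amounted to 20.97 and 19.9% of them. Ctsb reached 1031 and 949 CPM (3.61, adjusted p 6.43e-10), Ctsd 303 and 288 CPM (3.22, adjusted p 2.82e-10) and Lgmn 165 and 159 CPM (3.20, adjusted p 3.35e-10). Ctsz, Ctsf, Ctsa and Ctsl rose by 1.94, 1.86, 1.73 and 1.42 on the log2 scale. Ctsl had the smallest rise of the 8, and Ctsa rose by 1.09 with the correction. No protease overlapped between the ages, and neither did 87.9% of all genes tested.

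Among the hydrolases, 6 of 8 were lower in fetal KO brain and 0 higher. Psap was at 426, 415 and 434 CPM in WT and at 144, 139 and 125 CPM in KO, and fell by 1.61 (SE 0.0656, adjusted p 2.69e-08). Gaa was at 96.8, 81.4 and 90.8 CPM in WT and at 25.4, 27.5 and 23.9 CPM in KO, and fell by 1.77 (SE 0.078, adjusted p 3.82e-08), the largest fall of any member. Gaa is also the member with the third highest GC content, and its log2 value was -0.99 with the correction. Glb1, the beta-galactosidase of ganglioside breakdown, was at 17.6 to 20.05 CPM in WT and 7.95 to 9.998 CPM in KO, and fell by 1.03 (adjusted p 2.4e-05).

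Naglu, which removes N-acetylglucosamine from heparan sulfate, fell by 0.93 (adjusted p 0.000981), Man2b1, an alpha-mannosidase, by 0.48 (adjusted p 0.002) and Gusb, the beta-glucuronidase, by 0.46 (adjusted p 0.00591). With the correction these values were -0.34, 0.077 and -0.22 and none passed; that of Gusb was also lost with upper-quartile scaling. Gla, the X-linked alpha-galactosidase, and Neu1, the lysosomal sialidase, did not pass. Gla was at 6.68 to 7.15 CPM in WT and 7.89 to 9.10 CPM in KO (0.30, adjusted p 0.0687), and passed with upper-quartile scaling (0.47, adjusted p 0.00946). Neu1 was at 21.4 to 22.8 CPM in WT and 19.6 to 20.97 CPM in KO (-0.090, adjusted p 0.369), and the correction turned it to 0.36 (adjusted p 0.00876).

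With age all 8 were higher, as were 37.6% of all genes tested. Psap reached 2229.8 and 2311 CPM, a log2 fold change of 3.96 (SE 0.102, adjusted p 2.09e-10). Its share of the summed CPM of the 36 genes was 16.7 to 17.5% in WT, 8.19 to 8.82% in KO day 15, and 26.7 and 27.0% at week 70. Gaa rose by 3.82 (SE 0.155, adjusted p 4.12e-09) but differed between the week 70 replicates, at 312 and 464 CPM. The remaining 6 rose by 0.91 (Gusb) to 1.76 (Neu1). With the correction Neu1 was at 1.14, Man2b1 at 0.89 and Naglu at 0.53.

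**Figure D4:**
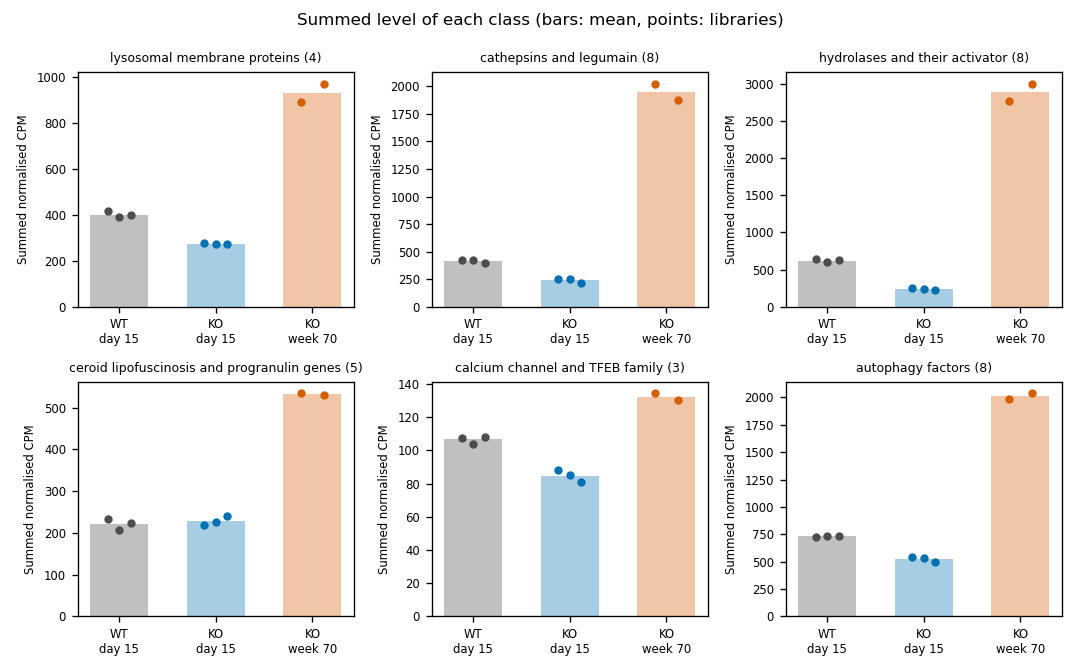
Summed normalised CPM (y) of the genes of each class, in parentheses the number of genes, for the 3 groups (x); bars are means and points are libraries. The hydrolases sum to 622 CPM in WT day 15, 239 in KO day 15 and 2883 in KO week 70, whereas the ceroid lipofuscinosis and progranulin genes are at 222, 228 and 533. Psap alone supplies 425, 136 and 2270 CPM of the hydrolase sums (group means), so that panel mainly shows Psap.

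The genes linked to ceroid lipofuscinosis and progranulin split in fetal KO brain, with 2 higher and 2 lower, and their summed levels overlapped: the WT mean was 222 ± 13.2 CPM (SD, n = 3) and that of KO was 228 ± 10.7 CPM (SD, n = 3). Grn was at 50.5, 34.8 and 41.9 CPM in WT and at 12.9, 13.7 and 12.6 CPM in KO, and fell by 1.66 (SE 0.125, adjusted p 1.13e-06). WT replicate 1, the library rich in connective tissue RNA, held the highest level, and without it the log2 value was -1.53. Tpp1, the tripeptidyl peptidase lost in CLN2 disease, was at 34.2 to 38.1 CPM in WT and 20.6 to 24.3 CPM in KO, and fell by 0.63 (adjusted p 7.86e-05). Tmem106b, by contrast, was at 76.8, 73.7 and 80.7 CPM in WT and at 112, 115 and 131 CPM in KO. Its rise was 0.67 (SE 0.0727, adjusted p 1.62e-05), and 0.35 after the correction (adjusted p 0.000405).

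Ppt1, the palmitoyl thioesterase lost in CLN1 disease, was at 49.2 to 52.7 CPM in WT and 54.4 to 59.3 CPM in KO. Its call of 0.18 (adjusted p 0.0263) was lost without any 1 library other than KO replicate 1, with DESeq2, with all 8 libraries in the fit, with no filter and with the replicate number as a block (adjusted p 0.0533). Cln3, a lysosomal membrane protein of juvenile disease, was at 15.4 to 16.6 CPM in WT and 15.7 to 17.5 CPM in KO (0.093, adjusted p 0.403), and was called higher with the correction (0.36) and with upper-quartile scaling (0.27). With age, Grn rose by 2.18 (adjusted p 9.05e-09), Tpp1 by 1.89, Ppt1 by 1.21 and Tmem106b by 0.82, the last 1.78 with the correction. Cln3, at 14.6 and 15.8 CPM, was level with the fetal libraries (-0.23, adjusted p 0.128). It was called lower with the correction (-0.49) and with upper-quartile scaling (-0.48).

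Both transcription factors were lower in fetal KO brain, while the calcium channel did not pass. Tfeb was scarce: the WT libraries held 50, 36 and 38 counts of it, and the fetal KO libraries 11, 20 and 13. These were 2.34, 1.80 and 1.91 against 0.667, 1.11 and 0.753 CPM, a fall of 1.20 (SE 0.281, adjusted p 0.00353) that was 0.51 after the correction (adjusted p 0.154). Tfe3, X-linked, was at 32.3, 34.3 and 34.4 CPM in WT and 18.8, 17.2 and 15.4 CPM in KO. It fell by 0.94 (SE 0.0911, adjusted p 7.29e-06), and by 0.30 with the correction (adjusted p 0.0117). Mcoln1, the calcium channel that acts upstream of TFEB through calcineurin, was at 68.1 to 73.1 CPM in WT and 65.1 to 68.6 CPM in KO (-0.049, adjusted p 0.448). The correction made it 0.26 (adjusted p 0.00141).

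At week 70 Tfeb held 268 and 203 counts, 17.7 and 14.0 CPM, a rise of 4.11 (SE 0.262, adjusted p 1.25e-07). Markers of oligodendrocytes were higher in the same libraries, with sums of 84.1 to 90.4 CPM in KO day 15 and of 13895 and 14049 CPM at week 70, and all 8 were called; their part in the rise of Tfeb was not tested. Tfe3 rose by 1.34 to 49.9 and 42.7 CPM (0.52 with the correction). Mcoln1 was at 67.0 and 73.7 CPM (-0.024, adjusted p 0.80). It was called lower with the correction (-0.47) and with upper-quartile scaling (-0.28), so that no direction can be given for it in either comparison.

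The 8 autophagy factors were divided at day 15, with 4 lower, 3 higher and 1 not called. Ulk1, the kinase that starts autophagosome formation, was at 212, 212 and 205 CPM in WT and at 97.7, 91.3 and 87.7 CPM in KO. It fell by 1.15 (SE 0.0585, adjusted p 8.53e-08), but by only 0.21 after the correction (adjusted p 0.0111). Sqstm1, the cargo receptor p62, was at 145, 148 and 153 CPM in WT and at 72.3, 68.8 and 55.6 CPM in KO, and fell by 1.14 (SE 0.0857, adjusted p 1.09e-06). Atg7, the enzyme that activates ATG8 proteins, fell by 0.83 (adjusted p 3.24e-05; -0.33 with the correction). Wipi2, which recruits the conjugation complex to the growing membrane, fell by 0.29 (adjusted p 0.00451), a call that upper-quartile scaling removed and the correction reversed.

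Atg5 and Atg16l1, of the complex that Wipi2 recruits, were higher in KO in both fits. Atg5 was at 20.4, 22.7 and 20.4 CPM in WT and at 33.2, 29.8 and 33.3 CPM in KO, a rise of 0.64 (SE 0.0871, adjusted p 9.32e-05; 0.28 with the correction). Atg16l1, its partner, was at 65.1, 65.1 and 63.7 CPM in WT and at 77.8, 79.2 and 74.1 CPM in KO, a rise of 0.29 (SE 0.0539, adjusted p 0.000774) that was 0.64 with the correction. Becn1, the scaffold of the lipid kinase complex, was at 61.7 to 63.6 CPM in WT and 64.4 to 72.8 CPM in KO. Its call of 0.17 (adjusted p 0.0317) was lost without any 1 library other than KO replicate 3, with DESeq2, with all 8 libraries in the fit, with no filter and with the replicate number as a block (adjusted p 0.0697). Gabarapl1, an ATG8 protein, was at 92.1 to 102 CPM in WT and 83.1 to 96.0 CPM in KO and did not pass (-0.076, adjusted p 0.341).

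With age the autophagy factors separated into large and small changes. Gabarapl1 reached 776 and 788 CPM (3.03, SE 0.092, adjusted p 5.47e-10) and Sqstm1 694 and 707 CPM (3.32, SE 0.113, adjusted p 1.23e-09). Atg7 and Wipi2 rose by 1.46 and 0.92, and by 0.90 and 0.32 with the correction. Ulk1 was at 126 and 139.5 CPM, above fetal KO but below all 3 WT fetal libraries. Its rise of 0.43 (adjusted p 0.00117) did not pass with upper-quartile scaling (adjusted p 0.0799) and was -0.64 with the correction. Becn1 rose by 0.27 (adjusted p 0.015), which was lost with upper-quartile scaling (adjusted p 0.863), with the replicate number as a block (adjusted p 0.0564) and without KO day 15 replicate 2 (adjusted p 0.0579). Atg16l1 was the only member called lower, at 69.0 and 64.3 CPM (-0.31, adjusted p 0.00646, and -0.70 with the correction). Atg5, at 36.3 and 35.1 CPM, did not pass (0.055, adjusted p 0.623), and was called higher with the correction (0.66).

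Levels were compared between genes per kilobase of the longest coding transcript. Psap led in all 3 groups, with means of 159.9 CPM per kilobase in WT, 51.1 in KO day 15 and 855 at week 70. In WT it was followed by Lamp1 (69.7), Sqstm1 (55.6) and Gabarapl1 (53.1), and the last 2 overlapped between libraries. In KO day 15 the leading 3 could not be separated: Psap ranged from 46.9 to 54.1, Lamp1 from 47.5 to 50.3 and Gabarapl1 from 45.6 to 52.8 CPM per kilobase. At week 70 Gabarapl1 (429.7) and Sqstm1 (262) followed Psap, ahead of Lamp1 (221) and Ctsb (209), which overlapped. Ctss was at rank 34 in WT, 31 in KO day 15 and 8 at week 70, and Ulk1 at ranks 5, 11 and 22. WT day 15 and KO week 70 differ in both genotype and age. Of the 35 pairs of neighbours in the order, 21 overlapped in WT, 27 in KO day 15 and 12 at week 70.

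The 10 genes with GTCACGTG in a promoter were set beside the others. At day 15, 7 of the 10 were lower in KO, 3 did not pass and 0 were higher, with a median log2 fold change of -0.73, where 32.5% of all genes were lower and 30.1% higher. With the correction 5 were lower, 2 (Cln3 and Mcoln1) higher and 3 not called (median -0.34), where 24.5% of all genes were lower and 25.8% higher. The 23 genes with a promoter but without this form counted 14 lower, 5 higher and 4 not called (median -0.46), and 11, 4 and 8 with the correction (median -0.22). With age 8 of the 10 rose (median 1.42), as did 22 of the 23 (median 1.76), where 37.6% of all genes were higher. With the correction 8 of the 10 were higher and 2 lower by age, and 22 of the 23 higher and 1 lower. The corrected shares of all genes were 39.7% higher and 39.0% lower. Cln3, which holds the full palindrome, and Mcoln1, whose promoter holds 2 copies of the core, were the 2 of the 10 not called with age, and both were called lower with the correction. Ctsa, Ctsd and Gla, each also with 2 copies, and Lamp1, with 4, were called higher with age.

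A wider list of 137 other genes of the same pathways was examined in 7 groups, and 136 of its genes were tested. At day 15, 38 were called higher and 64 lower in KO (median -0.20), and 40 and 38 with the length and GC correction (median -0.0035). Of all genes tested, 30.1% were called higher and 32.5% lower, and 25.8% and 24.5% with the correction. With age 100 were higher and 13 lower (median 1.03), where 37.6% of all genes were called higher and 44.4% lower (39.7% and 39.0% with the correction). The counts of each group below are to be read beside these shares of all genes. Of 23 other lysosomal hydrolases, 15 were lower in KO and 1 higher at day 15, and 10 and 1 with the correction; Arsb, an arylsulfatase, fell by 1.503 (adjusted p 2.34e-06) and Sgsh, a sulfamidase of heparan sulfate breakdown, by 1.42 (0.68 with the correction), whereas Asah1, the acid ceramidase, rose by 0.60. The Asah1 call was lost with the correction (adjusted p 0.0573). With age 19 of them rose and 0 fell, led by Arsb (4.06) and the ganglioside activator Gm2a (3.12).

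The vacuolar ATPase is the proton pump that acidifies the lysosome. Of its 18 subunits and accessory proteins on the list, 9 were higher and 6 lower in fetal KO brain (8 and 6 with the correction), with Atp6v1f (0.83) and Atp6v0e (0.81) at the upper end and Atp6ap1 (-0.70) and Atp6v1a (-0.69) at the lower. With the correction Atp6v1f was at 0.54. With age 17 rose, led by Atp6v0c (4.15) and the neuronal subunit Atp6v1g2 (3.94), and Atp6v0e fell by 0.78 (0.30 with the correction). Of 7 other cathepsins and cystatins, 4 were higher and 0 lower in fetal KO (2 and 1 with the correction), among them the inhibitors Cstb (0.99, and 0.37 with the correction) and Cst3 (0.65). Cst3, a secreted cystatin, rose by 3.93 with age, and Ctso by 3.32.

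Of 22 other membrane proteins and transporters, 9 were lower and 3 higher in fetal KO, and 7 and 5 with the correction. Laptm5, a protein of immune cells, fell by 1.74 (adjusted p 3.9e-06) and Cln6 by 1.14, while Mfsd8 and Tmem175 rose by 0.50 and 0.30; the Mfsd8 call was lost with the correction. With age 17 rose and 3 fell, with Lamp5 (4.55) and Laptm4b (3.98) highest and Tpcn2 (-1.47) and Ctns (-1.11) lowest. In the 9 genes of lysosomal sorting, 6 were lower and 1 higher in fetal KO, but 3 lower and 4 higher with the correction. Igf2r, the large mannose 6-phosphate receptor, fell by 1.59 and Sorl1 by 1.21, and Gnptg rose by 0.47. With the correction Igf2r was at -0.82 and Sorl1 at -0.49. Sorl1 (2.69) and Sort1 (2.38) rose with age, and Gga2 (-1.44) and Igf2r (-0.61, and -0.93 with the correction) fell.

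Genes of nutrient signalling at the lysosome were called in both directions. Among 19 tested genes, 8 were higher and 10 lower in fetal KO, and 8 and 4 with the correction. The mTORC1 subunits Rptor and Mtor fell by 1.53 and 1.00, and the Ragulator subunits Lamtor5 and Lamtor4 rose by 1.16 and 1.02. With the correction Rptor was at -0.54, Lamtor5 at 0.69 and Lamtor4 at 0.92, and Mtor did not pass (-0.059). With age 12 were higher and 3 lower, from Mitf (2.10) and Ywhaz (2.09) to Slc38a9 (-1.39) and Fnip2 (-0.93). Of 38 other autophagy factors, 12 were higher and 18 lower in fetal KO, but 12 and 7 with the correction, with Atg10 (0.90) and Vamp8 (0.85) against Pik3r4 (-1.08) and Epg5 (-1.06). With the correction Pik3r4 was at -0.47 and Epg5 at -0.33, and the Atg10 call was lost. With age 26 rose and 3 fell (25 and 8 with the correction), led by the ATG8 gene Gabarapl2 (2.76) and by Atg9a (2.10, and 1.25 with the correction), while Snap29 fell by 0.68 (0.42 with the correction) and Gabarap by 0.30, the latter call lost with the correction.

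Markers of other cell types also differed between the groups. In fetal KO brain all 6 endothelial markers were lower, with sums of 180.3 to 248 CPM in WT and 51.2 to 66.8 CPM in KO. Progenitor markers summed to 1249.8 to 1413 CPM in WT and to 531 to 553 CPM in KO, with all 7 called lower, and astrocyte markers to 443 to 505 and 213 to 218 CPM, with 4 of 7 called lower, 1 (Aqp4, 0.68) higher and 2 not called. Erythroid markers went the other way in sum, at 709.8 to 803 CPM in WT and 2498 to 3051 CPM in KO. Of the 6 erythroid markers 4 were called higher, Slc4a1 did not pass (-0.15, adjusted p 0.668) and Epb42 was not tested. At week 70 astrocyte markers summed to 7167 and 6682 CPM. No marker of these lists, nor of the microglia or oligodendrocyte lists, was at 0 in all fetal libraries. The part of cell composition in the differences of the lysosome and autophagy genes was not tested.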

How the data were processed

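RNA-seq counts of 8 whole mouse brain libraries were used. The authors deposited raw counts per Ensembl gene, per the file headers. The submitters' processing notes name FastQC, cutadapt, Trimmomatic, HISAT2, featureCounts and edgeR, and the builds GRCm38 and GRCm39, with no versions or roles; the use of strand is not given in the sources used here. Exons of 13 members overlap another gene, most in Becn1 (43.9% of exon bases), Ctsd (34.4%) and Ctsl (32.9%), so their values are uncertain.

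Genes were kept by filterByExpr, scaled by TMM and tested two-sided with edgeR 4.0.16 in R 4.3.3 (quasi-likelihood F-test, Benjamini-Hochberg adjustment over all genes, threshold 0.05), on the 6 fetal or the 5 KO libraries. The SE is the one implied by the F statistic. Lengths and GC came from GENCODE M 21 (GRCm38); the correction used mgcv 1.9.3. Alternatives included DESeq2 1.42.0. The tests were tried on simulated counts in which 200 genes were changed and no trend on GC was set. In the real data far more genes were called and GC trends were present, so that trial does not vouch for the calls. Replicates differed by more than sampling noise. All 36 members and, per group of the wider list, the 2 largest called rises and falls with a mean of at least 50 counts are named. The members and lists were chosen with earlier results of these data known. Processed pseudogenes were aligned to the members with minimap2. The p-values measure the spread between these libraries.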

Additional observations from a re-analysis of the deposited data

How the results depend on the processing

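Each comparison was repeated with RLE and upper-quartile scaling, no filter, DESeq2, all 8 libraries in the fit, the replicate number as a block, the length and GC correction, that correction with the block, a test against a fold change of 1.5, and each library left out. Without a week 70 library the remaining 1 is assumed to vary like the others. The count of members lower in KO at day 15 was 22 and moved beyond 1.5-fold only in the fold change test (14); leaving out libraries gave 21 to 22. The count of members higher in KO was 7, and 4 with no filter, 4 with all 8 libraries, 0 in the fold change test, and 4 to 5 with a library left out, lowest without WT replicate 2 or 3. By age the count higher was 32 and ranged from 30 to 32. The count lower by age was 1, and 3 with upper-quartile scaling, 4 with the correction, 4 with the correction and the block, and 0 in the fold change test.

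Same-numbered libraries of the 2 genotypes had correlations of deviations between -0.169 and -0.144, and differently numbered ones between 0.061 and 0.086. Libraries of the same number thus did not deviate in the same direction. Whether the numbers carry another structure was not tested. The replicate block gave 22 lower and 5 higher at day 15, and 31 higher and 1 lower by age.

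With upper-quartile scaling, the median over all genes was 0.20 on the log2 scale at day 15 (0.029 with TMM) and -0.44 by age (-0.19 with TMM), and that over the members -0.30 and 1.24. By it 39.8% of genes were called higher and 25.7% lower at day 15, and the log2 values of Cd63 (0.13), Ctsl (0.10), Neu1 (0.082), Mcoln1 (0.12) and Gabarapl1 (0.10) turned positive, and that of Atg5 by age negative (-0.19). With the correction, and in parentheses with the block as well, signs turned at day 15 for Lamp2, -0.39 (-0.39), Ctsl, 0.10 (0.10), Man2b1, 0.077 (0.079), Neu1, 0.36 (0.36), Ppt1, -0.14 (-0.14), Mcoln1, 0.26 (0.26), and Wipi2, 0.34 (0.34), and by age for Ulk1, -0.64 (-0.62). With a library left out, Cd63 at day 15 ranged from -0.29 to 0.18, positive without WT replicate 1 or KO replicate 3, and Mcoln1 by age from -0.092 to 0.055, positive without week 70 replicate 1. Mcoln1 by age was 0.075 with all 8 libraries. The rise of Naglu by age was lost with the correction and the block together (0.40, adjusted p 0.152). The cause of these turns was not tested. Tfeb, with at most 50 fetal counts, is the member most limited by depth.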

Other observations

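The week 70 replicates differed from each other in a few of these genes. Ctss was at 135 and 99.2 CPM and Gaa at 312 and 464 CPM in replicates 1 and 2, while Neu1 (73.9 and 73.0 CPM), Naglu (14.6 and 14.4) and Gabarapl1 (776 and 788) were close. The microglia markers were at 643 and 498 CPM in sum, and the choroid plexus markers at 67.6 and 2364 CPM. Any gene runs in the same or the opposite order as any marker sum here, so no link can be read from these values. By Xist and Y-linked counts the replicates also differed in sex. Of the 3 X-linked members, Lamp2 was at 129 and 134 CPM, Gla at 19.3 and 20.6 CPM and Tfe3 at 49.9 and 42.7 CPM. With 2 libraries, none of these differences was tested.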
